A study of Mus musculus with 6 samples.

Results

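Markers of bile duct epithelium and of hepatic progenitor cells were followed in damaged hepatocytes (dHeps), which are hepatocytes isolated from mice with chronic carbon tetrachloride (CCl4) injury. The 9 genes Krt7, Krt19, Sox9, Sox4, Epcam, Spp1, Cftr, Cd24a and Prom1 were taken by symbol from the 52323 genes of the deposited count table, and each had 1 row. All mice carried AAV-TBG-Cre:Rosa-LSL-tdTomato, in which a virus delivers Cre under the thyroxine-binding globulin promoter, so that tdTomato labels hepatocytes and their descendants. Mice were 8 to 10 weeks old when they entered the experiment and received CCl4 for 12 weeks. Cells from collagenase perfusion were plated and kept for 16 days in serum-free Hepatocyte Maintenance Medium, and were given either the solvent DMSO alone or one of the cocktails 3C and 5C. 3C consisted of the protein kinase D inhibitor CID755673 at 50 µM, the ROCK inhibitor GSK429286A at 2 µM, and ETC-1002 at 5 µM, which blocks ATP citrate lyase. To make 5C, 5 µM salidroside and 2 µM forskolin, which activates adenylate cyclase, were added to these at unchanged doses. Each group had 2 libraries. The labels do not say whether these came from separate animals or cultures, so p-values measure the spread between libraries, which may be technical.

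Cholangiocytes, the epithelial cells that line bile ducts, share a bipotent fetal precursor with hepatocytes. In chronic injury, adult hepatocytes can take up parts of the ductal program, with SOX9 and later the keratins of ducts, and such cells are described as reactive or progenitor-like. KRT7 and KRT19 are keratins of simple ductal epithelium, SOX9 and SOX4 are transcription factors of the developing duct, EPCAM, CD24 and CD133 (the product of Prom1) are surface proteins used to sort progenitor cells, CFTR is the chloride channel of ductal secretion, and osteopontin (Spp1) is a secreted phosphoprotein made by ductal cells and, in injured liver, by macrophages as well. None of these genes is exclusive to ducts. In bulk RNA, a change in the number of cells of a type and a change in RNA per cell cannot be told apart.

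Each library held 65916573 to 69245895 estimated counts, and 19135 genes were tested. Labelled as hepatocytes, the libraries also held RNA of genes that mark other liver cells. The paper reports that its isolation enriched hepatocyte-derived cells, and that injured hepatocytes raised mesenchymal genes such as Col1a1 and Acta2. Which cells made the RNA of these markers was not tested. Summed levels of 9 hepatocyte markers in CPM (counts scaled to a common library total) were 2395 to 2711 in DMSO, 10819 to 11289 in 3C and 9930 to 14577 in 5C. The summed CPM of 12 macrophage markers was 12156 to 13005 in DMSO, 4338 to 4381 in 3C and 2884 to 2893 in 5C. For 8 mesothelial markers it was 991 to 1202, 1277 to 1418 and 2325 to 2435 in the same order, and for 12 stellate cell and fibroblast markers 5659 to 6545, 4837 to 4875 and 7322 to 7863. The stellate cell and fibroblast sum was mostly Col1a1 and Col3a1 and does not give the direction of its list in 3C. There, 8 of the 12 genes had log2 fold changes above 0 against DMSO, with a median of 0.53. Endothelial markers summed to 328 to 338, 89.2 to 122 and 148 to 229 CPM, but this sum was mostly Lyve1 in DMSO. Lyve1 was at 309 and 319 CPM in DMSO, 66.1 and 78.1 CPM in 3C, and 48.8 and 66.4 CPM in 5C. Cdh5 went the other way, with 1.25 and 1.06 CPM in DMSO, 6.45 and 14.9 CPM in 3C, and 43.3 and 72.2 CPM in 5C. The sum therefore does not give the direction of the endothelial markers as a set. T and B cell markers summed to at most 0.689 CPM in any library, with Cd3e at 0 in all 6.

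**Figure D1:**
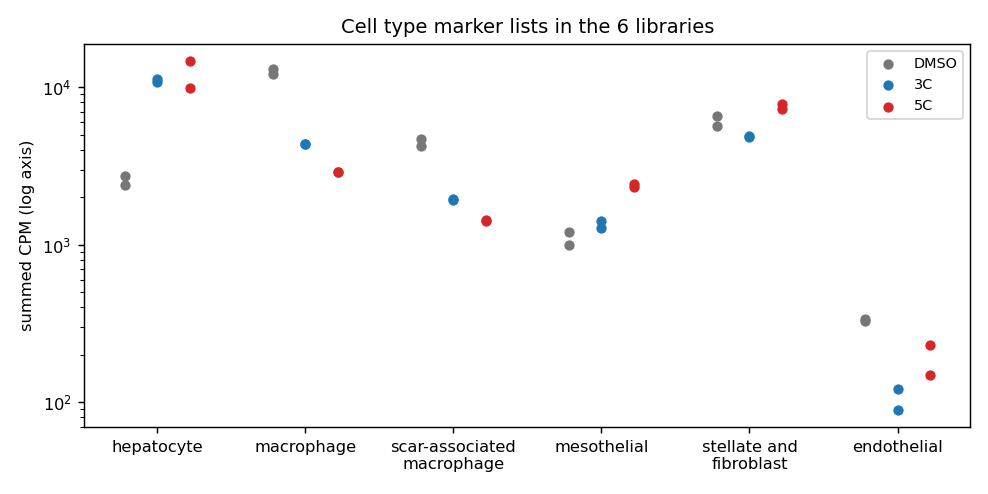
Summed level of each cell type marker list in the 6 libraries (1 point per library, CPM on a log axis, colours for DMSO, 3C and 5C; points of close libraries overlap). Macrophage markers were highest in DMSO, hepatocyte markers were higher in both cocktails, and mesothelial markers were highest in 5C, at 2325 to 2435 CPM. The endothelial sum in DMSO was mostly Lyve1, at 309 and 319 CPM.

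All 9 are protein-coding genes. In GRCm39, the build of the files, the keratins Krt7 and Krt19 lie at chr15:101308924-101328194 and chr11:100031636-100039491 and are not neighbours, and Sox9 (chr11:112673009-112678586) is on the chromosome of Krt19. Spp1 (chr5:104582165-104589235) and Prom1 (chr5:44150962-44259395) share a chromosome far apart. Sox4 is at chr13:29132902-29137696, Epcam at chr17:87943407-87958557, Cftr at chr6:18170686-18322767 and Cd24a at chr10:43454280-43460264.

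Promoter sequence was looked up for the markers as a description, whether or not they changed. RefSeq promoters (GRCm38.p6, 250 bases before to 50 after a gene start) matched 6 of the 9 markers, with 2 entries each for Prom1 and Spp1. Krt19, Sox9 and Cd24a had no entry. The first set shows the 100 bases upstream of the start of the 3 markers that were called higher in both cocktails (adjusted p under 0.05 and log2 fold change above 1 against DMSO), with CpG dinucleotides in capitals. The sequences are written 5′ to 3′ on the strand of the gene, at chr15:101412303-101412402 (plus strand) for Krt7, chr17:87635879-87635978 (plus) for Epcam and chr6:18170587-18170686 (plus) for Cftr.
Krt7: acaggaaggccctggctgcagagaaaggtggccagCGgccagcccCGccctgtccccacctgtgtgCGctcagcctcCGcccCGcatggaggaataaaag
Epcam: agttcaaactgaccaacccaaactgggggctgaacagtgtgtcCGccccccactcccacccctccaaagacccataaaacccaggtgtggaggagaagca
Cftr: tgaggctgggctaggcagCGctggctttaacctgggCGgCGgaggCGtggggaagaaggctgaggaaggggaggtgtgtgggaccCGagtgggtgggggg
These 3 promoters were unlike each other in CpG content. Over the full 300 bases, Cftr held 31 CpG, Krt7 21 and Epcam 11, beside a median of 7 among 32851 mouse promoters. At least as many CpG as in Cftr were found in 10.6% of all promoters, and at least as many as in Krt7 in 24.8%.

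The second set shows matches to short motifs of ductal and injury-response factors, which were searched on both strands. Prom1, called higher in 3C, is shown from 130 to 71 bases upstream of its distal start (chr5:44101807-44101866, minus strand), and Sox4, which did not pass the test in any comparison, from 180 to 91 bases upstream (chr13:28953790-28953879, minus strand). Capitals mark AP-1 (TGANTCA) and RBPJ (TGGGAA, here on the opposite strand) in Prom1, and TEAD (GGAATG) and RBPJ in Sox4.
Prom1: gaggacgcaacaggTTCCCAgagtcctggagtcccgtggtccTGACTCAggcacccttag
Sox4: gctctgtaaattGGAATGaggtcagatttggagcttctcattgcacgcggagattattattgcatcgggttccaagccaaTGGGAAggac
An AP-1 match was present in 7.81% of all promoters and in both Prom1 entries. RBPJ, the DNA-binding partner of Notch, had a match in 25.6% of all promoters and TEAD, the partner of YAP, in 14.7%. The first Spp1 promoter held an HNF1 match (GTTAAT, 7.1% of all promoters) 194 bases upstream. The letters of the CRE core (TGACGT, 7.51%) and of the SOX motif (AACAAT, 10.7%) were in none of the 8 promoter entries. Krt7, Epcam and Cftr had no match to any motif searched, TATAAA included. These matches are descriptions of sequence and no test of binding.

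Compared with DMSO, 6 of the 9 markers rose in 3C, and in 5C 6 rose and 1 fell, at a Benjamini-Hochberg adjusted p under 0.05. Each adjusted p below comes from the quasi-likelihood test of edgeR unless another tool is named. Among all genes tested, 24.5% passed this rule in 3C (12.7% higher and 11.8% lower) and 28.7% in 5C (15.6% higher and 13.1% lower). A gene was called when its log2 fold change was also beyond 1. In 3C the called markers were Krt7, Sox9, Epcam, Cftr and Prom1, which is 5 of 9, all higher, where 9.45% of all genes were called (5.83% higher and 3.62% lower). In 5C they were Krt7, Epcam and Cftr, which is 3 of 9, again all higher, where 11.7% of all genes were called (7.3% higher and 4.42% lower). The median log2 fold change of the 9 markers was 1.21 in 3C and 0.76 in 5C, beside medians of 0.01 and 0.00 over all genes tested. Both comparisons share the DMSO libraries. The libraries of the groups did not overlap for 8 of 9 markers in either comparison, against 61.6% of all genes for 3C and 63% for 5C.

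**Figure D2:**
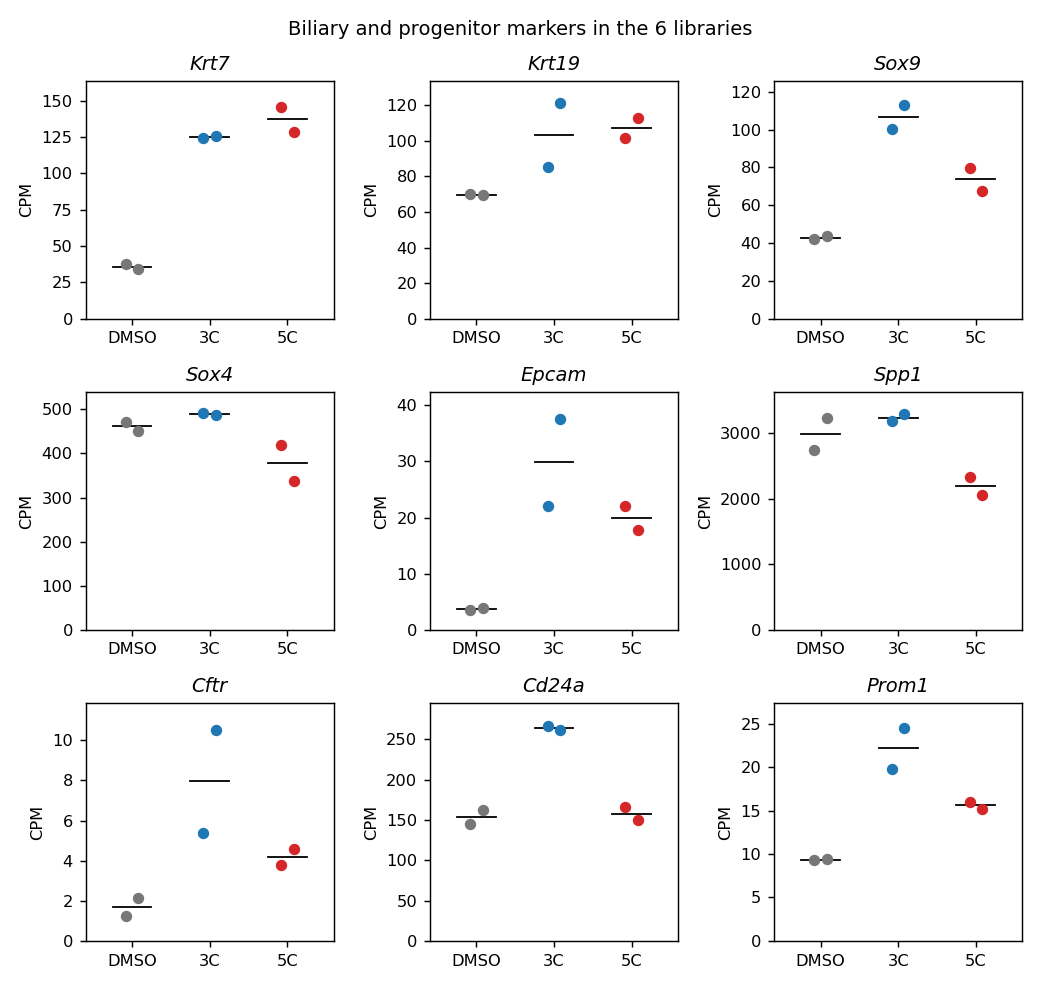
Level of each marker in the 6 libraries (CPM, linear axes from 0; points are libraries and the bar is the mean of the 2). Krt7, Epcam, Sox9, Cftr and Prom1 were lowest in both DMSO libraries, Cd24a was high in 3C alone, and Spp1 was lowest in 5C.

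Krt7 had the smallest relative error of the raised markers. Its level was 37.6 and 34.1 CPM in the DMSO libraries, 124 and 125 CPM in 3C, and 146 and 129 CPM in 5C. Every treated library was more than 3 times as high as either DMSO library. On the log2 scale, Krt7 rose by 1.77 ± 0.08 (SE, n = 2 per group, adjusted p = 1.76e-06, edgeR) in 3C and by 1.96 ± 0.08 (adjusted p = 5.31e-07) in 5C. Between the cocktails its log2 fold change (5C against 3C) was 0.19, with a 95% interval of 0.01 to 0.36 and an adjusted p of 0.164.

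Krt19, the other ductal keratin, moved less and less evenly. It stood at 70.2 and 69.4 CPM in DMSO, 85.2 and 121 CPM in 3C, and 102 and 113 CPM in 5C. All 4 treated libraries lay above DMSO, and the 3C libraries were apart by more than the 5C libraries were. Krt19 rose in 5C by 0.64 ± 0.16 on the log2 scale (adjusted p = 0.0242), while the value in 3C was 0.53 ± 0.16 (adjusted p = 0.0532). The adjusted p in 5C rose to 0.151 without DMSO replicate 1 and to 0.144 without DMSO replicate 2, and with 5C replicate 1 or 2 left out it was 0.0642 or 0.145. In 3C the log2 fold change was 0.77 (adjusted p = 0.00161) when 3C replicate 1 was left out and 0.25 (adjusted p = 0.187) when replicate 2 was. DESeq2 gave an adjusted p of 0.00218 in 3C, and over all alternatives run it lay between 0.00161 and 0.238. Because Krt7 moved more than Krt19, their ratio changed within libraries. The ratio of their FPKM, which are scaled for gene length, was 0.226 and 0.21 in DMSO, 0.676 and 0.471 in 3C, and 0.733 and 0.548 in 5C. The length implied by counts and FPKM varied over the libraries, from 3367 to 4160 bases for Krt7 and from 1693 to 1780 for Krt19. The ratio therefore also holds differences in this length.

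Mesothelial cells also express both keratins. The median log2 fold change of their markers was 1.125 in 5C, 0.08 in 3C and 1.085 in 5C against 3C. In the same order, Krt7 had 1.96, 1.77 and 0.19, and Krt19 had 0.64, 0.53 and 0.11. Of 8 mesothelial markers, 5 were called higher in 5C against DMSO, 1 in 3C against DMSO and 4 in 5C against 3C, with none lower. Among the most abundant of them, Msln (mesothelin) rose by 0.63 ± 0.07 on the log2 scale in 5C (adjusted p = 0.00016) and by 0.38 ± 0.07 in 3C (adjusted p = 0.00406). Upk3b rose by 1.18 ± 0.15 in 5C and Gpm6a by 1.20 ± 0.12, and their values in 3C were 0.07 and -0.07. The part of these cells in the keratin values was not tested.

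**Figure D3:**
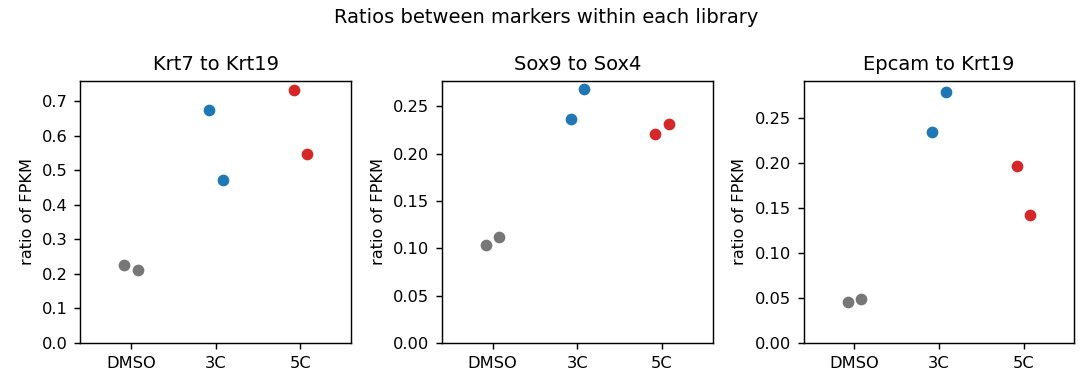
Ratio of FPKM between pairs of markers within each library (linear axes from 0, 1 point per library). The Krt7 to Krt19 ratio was 0.21 to 0.226 in DMSO and at least 0.471 in every treated library, and the Sox9 to Sox4 and Epcam to Krt19 ratios were likewise lowest in DMSO.

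Sox9 and Sox4, which act together in duct formation, behaved differently. Sox9 was at 42.0 and 43.8 CPM in DMSO, 100 and 113 CPM in 3C and 79.8 and 67.5 CPM in 5C. The 3 groups were in separate ranges, with 3C on top. Sox9 rose by 1.28 ± 0.09 (log2, adjusted p = 1.91e-05) in 3C and by 0.80 ± 0.09 (adjusted p = 0.000231) in 5C, and it was lower in 5C than in 3C by -0.49 ± 0.09 (adjusted p = 0.00961). This last difference had an adjusted p of 0.107 when 3C replicate 2 was left out and of 0.0658 when 5C replicate 2 was. Sox4 was nearly level, at 472 and 452 CPM in DMSO, 492 and 487 CPM in 3C, and 418 and 338 CPM in 5C. Its log2 fold change was 0.05 (95% interval -0.16 to 0.26, adjusted p = 0.764) in 3C and -0.27 (-0.48 to -0.06, adjusted p = 0.0547) in 5C, and -0.32 (-0.53 to -0.11, adjusted p = 0.0526) between 5C and 3C. Over the alternatives run the adjusted p of the latter values lay between 0.00849 and 0.281 and between 0.00649 and 0.256. Within libraries, the FPKM ratio of Sox9 to Sox4 was 0.103 and 0.112 in DMSO, 0.237 and 0.269 in 3C, and 0.221 and 0.232 in 5C.

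Some other genes of the SOX family, from a list of 10, also rose. Of 9 tested besides Sox9 and Sox4, 4 were called higher in 5C, 2 in 3C and 3 in 5C against 3C, with none lower. Sox12, a close relative of Sox4, rose by 0.71 ± 0.13 in 3C (adjusted p = 0.00294) and by 1.40 ± 0.13 in 5C (adjusted p = 4.45e-05). Sox5 rose in both cocktails, by 0.41 in 3C and 0.53 in 5C, and Sox6 had values of 0.22 and 0.19 with adjusted p of 0.222 and 0.277. The other called members were Sox7, Sox17 and Sox18 (named after their values were seen), endothelial factors that had at most 0.23 CPM on average in DMSO and 2.47 to 6.94 CPM in 5C.

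**Figure D4:**
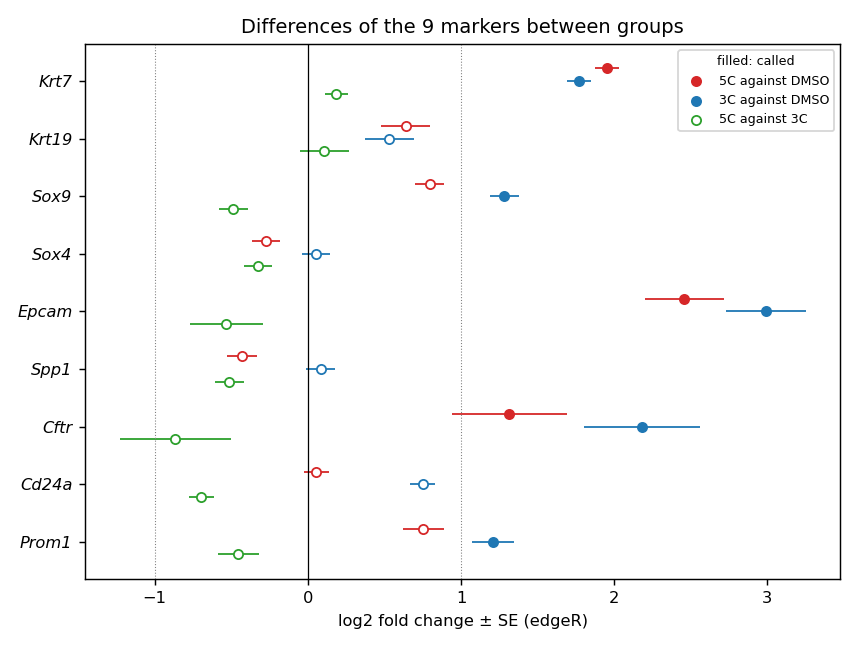
Log2 fold change of each marker (point, with its SE as the bar) in each cocktail against DMSO and in 5C against 3C; filled points were called and dotted lines mark log2 fold changes of 1 and -1. Epcam had the highest values against DMSO, 2.99 in 3C and 2.46 in 5C, and no marker was called between the cocktails.

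Epcam, the adhesion molecule of ductal and progenitor epithelium, had the largest fold changes of the 9 markers. It rose from 3.54 and 3.79 CPM in DMSO to 22.1 and 37.5 CPM in 3C and 22.1 and 17.7 CPM in 5C. The treated libraries did not overlap with DMSO, and the 2 libraries of 3C were apart by more than those of any other group. The log2 fold change was 2.99 ± 0.26 (adjusted p = 0.000159) in 3C and 2.46 ± 0.26 (adjusted p = 0.000319) in 5C. Between 5C and 3C it was -0.53 (95% interval -1.09 to 0.03, adjusted p = 0.224), and it depended on which 3C library was kept: -0.86 (adjusted p = 0.0271) without 3C replicate 1, and -0.10 (adjusted p = 0.887) with replicate 2 of 3C left out.

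Prom1, which codes for the membrane glycoprotein CD133, followed the same order at a lower fold. It was at 9.29 and 9.45 CPM in DMSO, 19.7 and 24.6 CPM in 3C and 16.0 and 15.2 CPM in 5C, again with no overlap between groups. It rose by 1.21 ± 0.14 (adjusted p = 0.000217) in 3C and by 0.75 ± 0.14 (adjusted p = 0.00291) in 5C. The difference between 5C and 3C was -0.45 (95% interval -0.76 to -0.15, adjusted p = 0.0605).

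Cd24a, a heavily glycosylated surface protein, rose in 3C and not in 5C. Its levels were 145 and 162 CPM in DMSO, 267 and 262 CPM in 3C, and 166 and 150 CPM in 5C. The 5C libraries overlapped with DMSO and lay well below 3C. The log2 fold change was 0.75 ± 0.08 (adjusted p = 0.000176) in 3C, 0.06 (95% interval -0.13 to 0.24, adjusted p = 0.677) in 5C, and -0.69 ± 0.08 (adjusted p = 0.0011) in 5C against 3C. The last of these kept an adjusted p of at most 0.0367 in all 18 alternatives. Of the 50-base words in the longest Cd24a transcript, 3.37% also occur in other genes, mostly Gm6212.

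Cftr had the lowest level per length of the 9 markers, and few counts limit its precision. It had 85 and 142 estimated counts in DMSO, 357 and 717 in 3C, and 263 and 319 in 5C, or 1.27 and 2.15 CPM, 5.39 and 10.5 CPM, and 3.81 and 4.61 CPM. Every treated library was above both DMSO libraries, though the 2 libraries of DMSO and those of 3C were far apart. Cftr was called in 3C, with a log2 fold change of 2.18 ± 0.38 (adjusted p = 0.00305), and in 5C, with 1.32 ± 0.38 (adjusted p = 0.0291). The call in 5C was lost without DMSO replicate 1 (0.97, adjusted p = 0.143), without 5C replicate 1 (1.46, adjusted p = 0.0767), without 5C replicate 2 (1.15, adjusted p = 0.149), and with limma on log2(FPKM + 1) (0.36, adjusted p = 0.184, or 0.341 with no filter) and on log2(FPKM + 0.1) (1.05, adjusted p = 0.0972). Between 5C and 3C the value was -0.87 (95% interval -1.69 to -0.04, adjusted p = 0.179), and it ran from -1.27 (adjusted p = 0.0835) without 3C replicate 1 to -0.30 (adjusted p = 0.801) with replicate 2 of 3C left out.

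Spp1 had the highest level per length of the 9, with FPKM ranks of 8 to 17 among all genes in the 6 libraries. It was at 2748 and 3232 CPM in DMSO, 3182 and 3299 CPM in 3C, and 2334 and 2058 CPM in 5C. The 3C and DMSO libraries overlapped, and 5C was lower than all of them. Spp1 fell in 5C, with a log2 fold change of -0.43 ± 0.10 against DMSO (adjusted p = 0.00961) and of -0.51 ± 0.10 against 3C (adjusted p = 0.00913), and in 3C its value was 0.08 (95% interval -0.14 to 0.30, adjusted p = 0.618). Without 5C replicate 2 these adjusted p were 0.0855 and 0.0845, and with 3C replicate 1 or 2 left out the value against 3C had an adjusted p of 0.0561 or 0.0821.

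Macrophages of injured liver make osteopontin too, and most of their markers fell in both cocktails. Of 12 macrophage markers, 11 were called lower in each cocktail, and the other one, Cd14 (named after its values were seen), rose by 0.86 in 3C (adjusted p = 0.000112) and by 0.60 in 5C (adjusted p = 0.000734). The medians of the 12 were -1.48 in 3C and -2.05 in 5C. Lyz2, the one with the most counts, had a log2 fold change of -1.78 in 3C and of -2.44 in 5C. C1qa had -1.66 and -2.08 and Mrc1 had -1.18 and -1.59, all called. Of 6 markers of scar-associated macrophages, 2 were called lower in each cocktail. Gpnmb had log2 fold changes of -1.73 and -2.43, Lgals3 of -0.62 and -0.83, which passed the adjusted p, and Cd63 had values of -0.18 and -0.25 that did not pass. The part of macrophages in the Spp1 level was not tested. Of 9 osteopontin receptor genes, 1 was called higher and 1 lower in 5C, and 1 lower in 3C. Itgb1, with the most counts, had values of -0.09 in 5C (adjusted p = 0.381) and -0.28 in 3C (adjusted p = 0.0176), Itgb5 of -0.19 and -0.26, and Itgav of 0.23 and 0.28. The called receptors, named after their values were seen, were Itga4, a leukocyte integrin that fell by 2.58 in 5C and 1.90 in 3C, and Itgb3, which rose by 1.78 in 5C.

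Between the cocktails, which differ by salidroside and forskolin together, so that their shares cannot be told apart, no marker was called. By edgeR, 0 of 9 markers passed both thresholds (3.01% of all genes did, 2.16% higher and 0.852% lower), and DESeq2 also called 0. An unadjusted p under 0.05 was reached by 7 of the 9 (24.7% of all genes), and 3 were lower in 5C at an adjusted p under 0.05, Sox9, Spp1 and Cd24a, where 5.33% of all genes were (7.33% were higher). Fitted values were lower in 5C than in 3C for 7 markers and higher for the keratins Krt7 and Krt19, with a median of -0.49 over the 9, beside -0.01 over all genes. Libraries of 5C and 3C did not overlap for 7 of 9 markers, against 56.3% of all genes.

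Levels can be ordered between genes only per length. By FPKM in DMSO the order was Spp1 (1897), Sox4 (87.6), Cd24a (76.9), Krt19 (40.3), Sox9 (9.42), Krt7 (8.79), Prom1 (2.30), Epcam (1.90) and Cftr (0.24), and no neighbours overlapped between the 2 libraries. In 3C Cd24a (130) stood above Sox4 (91.3), Krt7 (32.5) above Sox9 (23.1) and Epcam (15.3) above Prom1 (5.41), again with no overlap. In 5C Spp1 (1386) was followed by Cd24a (78.5), Sox4 (71.2) and Krt19 (61.4); Cd24a overlapped with Sox4 and Sox4 with Krt19. Below them came Krt7 (39.1), Sox9 (16.1), Epcam (10.3), Prom1 (3.88) and Cftr (0.59).

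As a description over the 6 libraries, which fall into 3 groups, the log2 CPM of Sox9 correlated with that of Prom1 at r = 0.992 and with that of Epcam at r = 0.97, and Epcam and Prom1 had r = 0.976. Sox4 and Spp1 had r = 0.877 with each other and between -0.495 and 0.088 with Krt7, Krt19, Sox9, Epcam, Cftr and Prom1. Cd24a lay between these, with r = 0.823 to Sox9 and 0.594 to Spp1. Among 10239 other genes whose mean was 10 CPM or more, the gene most alike in Pearson r of log2 CPM over the 6 libraries was Ldhd for Krt7 (0.9986), Mmp15 for Epcam (0.998), Pik3ap1 for Cd24a (0.9984), Slc44a3 for Sox9 (0.9954), Pan2 for Sox4 (0.9951), Ccnd1 for Spp1 (0.995), Dtymk for Prom1 (0.9947), Gm15772 for Krt19 (0.9902) and Hyi for Cftr (0.9885). The highest r of so many genes over 6 libraries is bound to be near the top of the scale. The size of the changes could differ: log2 CPM spanned 0.41 for Dtymk beside 1.38 for Prom1, and 1.16 for Hyi beside 3.01 for Cftr.

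Other genes of biliary epithelium were taken in 3 lists. The counts of these and of every other list stand beside the shares of all genes called. Against DMSO these shares were 7.3% higher and 4.42% lower in 5C, and 5.83% higher and 3.62% lower in 3C. In 5C against 3C they were 2.16% higher and 0.852% lower. Of 13 further keratin, junction and surface genes, 7 were called higher and none lower in 3C against DMSO, 4 higher and 2 lower in 5C against DMSO, and 3 lower and none higher in 5C against 3C. Their median log2 fold changes were 1.19, 0.29 and -0.77. Krt8 and Krt18, the keratin pair shared by hepatocytes and cholangiocytes, rose in 3C by 0.82 ± 0.13 (adjusted p = 0.00187) and 0.89 ± 0.11 (adjusted p = 0.000464), had values of 0.16 and 0.12 in 5C that did not pass, and were lower in 5C than in 3C by -0.66 and -0.77. Cdh1 (E-cadherin) was at 139 and 162 CPM in DMSO, 280 and 303 CPM in 3C, and 122 and 132 CPM in 5C, so that the 3 groups did not overlap and 5C was lowest. It rose by 0.92 ± 0.10 in 3C (adjusted p = 0.000142), had a value of -0.23 in 5C (adjusted p = 0.117) and was called lower in 5C against 3C, with -1.15 ± 0.10 (adjusted p = 0.00027).

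The following genes of this list were named after their values were seen. Mmp7, a matrix protease of injured ducts, was at 1.42 and 2.24 CPM in DMSO, 71.7 and 95 CPM in 3C and 69.2 and 62.0 CPM in 5C, which were the highest fold changes of the 13 genes. Its log2 fold change was 5.48 ± 0.24 in 3C (adjusted p = 1.27e-05) and 5.18 ± 0.24 in 5C (adjusted p = 9.92e-06). Krt20 and Tspan8 fell in 5C, by 1.88 and 1.10, and had values of -0.14 and 0.23 in 3C that did not pass.

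**Figure D5:**
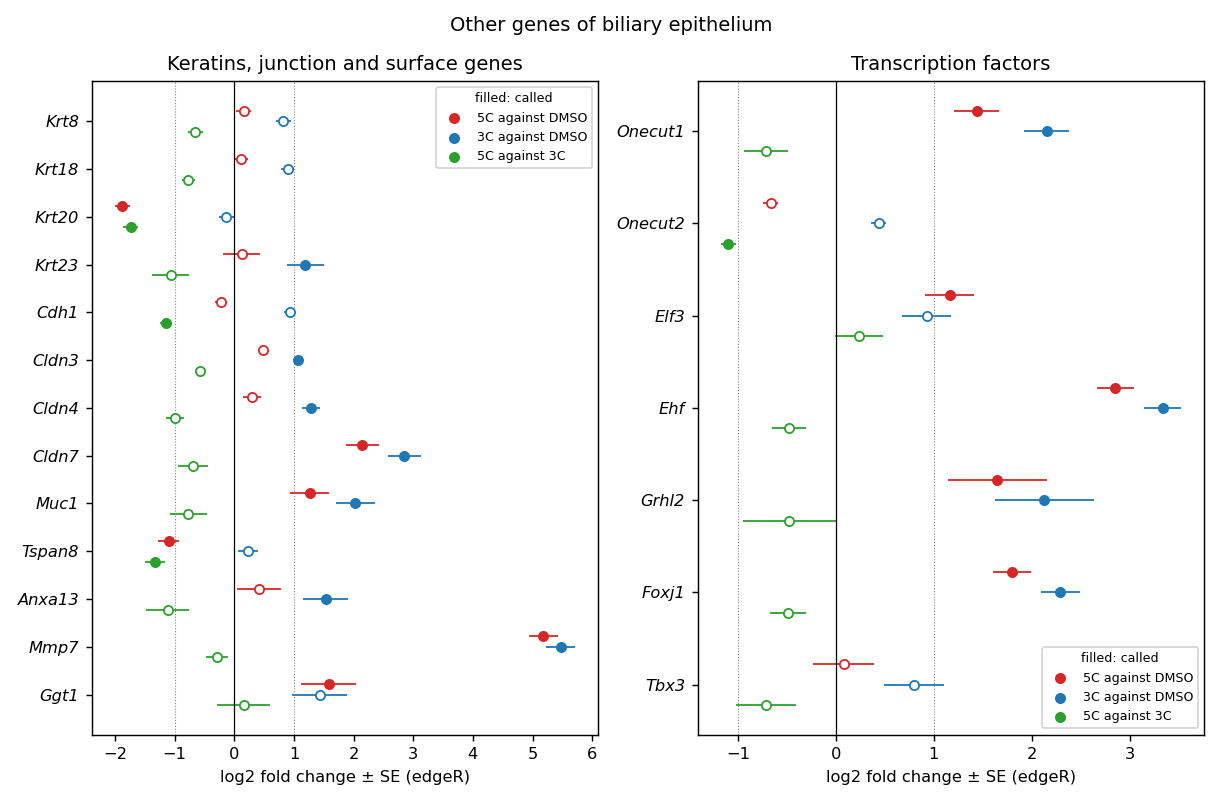
Log2 fold change with SE of 13 keratin, junction and surface genes (left) and 7 transcription factors (right) of biliary epithelium in the 3 comparisons; filled points were called, and dotted lines mark log2 fold changes of 1 and -1. Most genes lie to the right of 0 in 3C against DMSO and to the left of 0 in 5C against 3C, with Mmp7 above 5 in both cocktails.

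Of 7 further transcription factors of ductal epithelium, 5 were called higher in 5C, 4 in 3C and 1 lower in 5C against 3C. Onecut2, a paralog of HNF6, rose by 0.44 ± 0.08 in 3C (adjusted p = 0.00264), fell by 0.67 in 5C (adjusted p = 0.000185) and was called lower in 5C against 3C, with -1.10 ± 0.08 (adjusted p = 0.000151). Onecut1, which codes for HNF6, rose by 2.15 ± 0.23 in 3C (adjusted p = 0.000179) and by 1.44 ± 0.23 in 5C (adjusted p = 0.0015). HNF6 is not particular to ducts, and the paper counts it among the hepatocyte-enriched factors that both cocktails raised. Ehf, an epithelial ETS factor, rose in both, by 3.34 ± 0.19 in 3C and 2.86 ± 0.19 in 5C, from 1.76 and 2.15 CPM in DMSO to 17.7 and 22.8 CPM and to 15.0 and 13.0 CPM.

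Of 11 genes of ductal secretion, transport and cilia, 3 were called higher in 5C, 2 in 3C and 1 in 5C against 3C, with none lower. Bicc1, the one with the most counts and an RNA-binding protein of renal and biliary tubules, rose by 0.94 ± 0.07 in 3C (adjusted p = 1.75e-05) and by 0.83 ± 0.07 in 5C (adjusted p = 2.54e-05). Pkd2 and Slc4a2, a cilium channel and an anion exchanger, had values of -0.03 and -0.11 in 3C and of -0.03 and 0.09 in 5C, and neither passed. Gpbar1, the membrane bile acid receptor (named after its values were seen), was the called gene between the cocktails, at 3.04 and 2.62 CPM in 3C and 7.28 and 5.73 CPM in 5C, with a log2 fold change of 1.25 ± 0.26 (adjusted p = 0.0137). The value of Cftr in the same comparison, -0.87, did not pass.

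Progenitor and fetal liver genes moved in both directions. In 5C, 3 of the 12 genes with enough counts to test were called higher and 2 lower, and in 3C 2 higher and 1 lower. Between the cocktails 2 were called in each direction. Gpc3, a fetal proteoglycan, was at 59.9 and 36.9 CPM in DMSO, 161 and 159 CPM in 3C, and 310 and 329 CPM in 5C. The groups were apart, with 5C highest. Its log2 fold change was 1.70 ± 0.21 in 3C (adjusted p = 0.00264) and 2.74 ± 0.22 in 5C (adjusted p = 0.000332). Itga6 fell by 1.00 in 3C and by 1.31 in 5C, and Tnfrsf12a, the TWEAK receptor, rose by 0.52 in 3C (adjusted p = 0.00628) with a value of 0.23 in 5C (adjusted p = 0.147). Afp, the fetal serum protein (named after its values were seen), was highest in 3C like Sox9 and Prom1, with 2.50 ± 0.17 in 3C, 1.64 ± 0.16 in 5C and -0.86 ± 0.16 between 5C and 3C (adjusted p = 0.0121).

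Notch and YAP signals drive hepatocytes towards a ductal fate. Of 13 genes of these pathways, 2 were called higher in each cocktail and 1 lower in 5C against 3C. By the adjusted p alone, 5 rose and 3 fell in 5C, and 3 rose and 1 fell in 3C. The genes that fell in 5C, named after their values were seen, were the receptors Notch1 (-0.59, adjusted p = 0.000851) and Notch2 (-0.53, adjusted p = 0.00529) and the YAP target Ankrd1 (-0.77, adjusted p = 0.00017), whose values in 3C of 0.04, -0.24 and 0.07 did not pass. Yap1 rose by 0.32 in 5C and its partner Tead1 by 0.41, while Wwtr1 of the same list had a value of 0.13 (adjusted p = 0.189). These genes were also named after their values were seen. The YAP targets Ccn2, Amotl2 and Ccn1 had log2 fold changes of -0.07, 0.19 and -0.45 in 3C and of -0.20, 0.54 and 0.03 in 5C, of which Ccn1 in 3C (adjusted p = 0.00379) and Amotl2 in 5C (adjusted p = 0.00322) passed. The called genes were the Notch targets Hes1 and Heyl and the ligand Jag1, named after their values were seen. Hes1 rose by 1.31 ± 0.09 in 3C and by 1.40 ± 0.09 in 5C, and Heyl by 3.8 ± 0.53 and 3.72 ± 0.53 from 0.57 and 1.38 CPM in DMSO. Jag1 rose in 3C by 0.91 ± 0.15 (adjusted p = 0.00379) and was called lower in 5C against 3C, with -1.17 ± 0.15 (adjusted p = 0.00308).

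The groups also differed in genes that mark hepatocytes and other cell types. Of the 9 hepatocyte markers, 8 were called higher in 3C and 7 in 5C, and none was called lower. Alb (albumin) rose by 2.55 on the log2 scale in 3C and by 2.78 in 5C, Apoa1 by 3.09 and 3.81, and Apob by 1.23 and 0.99, of which the last passed the adjusted p alone. Arg1 (arginase, named after its values were seen) fell in both, with -0.33 in 3C (adjusted p = 0.0422) and -0.85 in 5C (adjusted p = 0.000269). Of 12 stellate cell and fibroblast markers, 4 were called higher in 5C, and 3 higher and 2 lower in 3C. Col1a1 and Col3a1, the fibrillar collagens, had log2 fold changes of -0.65 and -0.62 in 3C, which passed the adjusted p, and of 0.26 and 0.03 in 5C, which did not, while Dcn (decorin) rose by 0.72 in 3C and by 1.28 in 5C. Among 7 endothelial markers, calls in 3C were 3 higher and 1 lower, and calls in 5C 5 higher and 1 lower. Lyve1 had log2 fold changes of -2.15 in 3C and -2.42 in 5C, Cdh5 (VE-cadherin) of 3.17 and 5.66, and Kdr of 0.19 (adjusted p = 0.394) and 1.31 (adjusted p = 0.000128). The part of these cells in the levels of the biliary and progenitor markers was not tested.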

How the data were processed

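RNA-seq libraries from cultured dHeps, 2 per group, were sequenced with paired ends. The deposited count table holds estimated counts per gene, not normalized by the authors, and the deposited FPKM table was scaled by the authors for gene length and library total. Processing notes of the submitters name featureCounts, Subread, DESeq2 and the build GRCm39. The aligner, the annotation and the strand setting are not given in the sources used here. All markers but Epcam and Spp1 overlap exons of a gene on the opposite strand, so without strand their reads could be mixed. Spp1 overlaps Gm42793 on the same strand. Low counts of 4 were in excess (4816 entries, beside 3121 of 3 and 2303 of 5), so a fragment may count as 4 units, which would make 16.5 to 17.3 M fragments per library, although 1 was the most frequent low count (6338 entries). Positions came from GENCODE on GRCm39. Libraries of a group differed by more than sampling noise and were treated as separate.

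Counts were tested by edgeR 4.0.16 in R 4.3.3 (quasi-likelihood F test) with TMM scaling, robust dispersions, filterByExpr on the group and 1 coefficient per group over all 6 libraries (3 residual degrees of freedom). Benjamini-Hochberg adjustment ran over 19135 genes. A gene was called when its adjusted p was under 0.05 and its log2 fold change beyond 1 in size, and "rose" or "fell" needed the adjusted p alone. SE is the value implied by the F statistic, and CPM are counts scaled to the library total. Intervals are 95% intervals of the fitted model. On simulated counts for 5C against DMSO (19135 genes), 183 to 189 of 200 genes changed by a log2 fold change of 2 were recovered, with 7 to 15 false calls in each of 3 runs. The changed genes had a mean of at least 1 CPM, and the dispersions were those estimated from these 6 libraries. Recovery of smaller changes, such as those of many of the markers, was not measured.

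Members, gene lists and the naming rule were chosen with earlier results of these data known. Besides the 9 markers, the text names the 3 genes with the highest mean CPM of each list, except lymphocyte markers, which are at or near 0, and, for each marker, the most alike gene; other genes are said to be named after their values were seen. Alternatives were other scalings and filters, DESeq2 1.42.0, limma 3.58.1 on log2(FPKM + 1) and log2(FPKM + 0.1) (values with FPKM of at least 0.5, or no filter), fits to 4 libraries, a replicate block, counts divided by 4, no fold limit and leaving out each library. Some genes of the lists are not reported here and were left out of the counts. Protein sequences were not used here.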

Additional observations from a re-analysis of the deposited data

How the results depend on the processing

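There were 18 alternatives and 1 more that was chosen after seeing the data. Over these, 473 of 495 fold changes of the markers kept their direction and whether they were called. Of the rest, 10 lost a call, 8 gained one and 4 changed sign. All 8 gained calls came from dropping the fold limit on the main fit, so they were fixed in advance by its adjusted p. By the adjusted p alone, which decides "rose" and "fell", 21 of the 495 lost the threshold and 22 gained it, among them Krt19, Sox4, Spp1, Sox9 and Cftr. The sign changes were in values near 0 that were not called: Cd24a in 5C against DMSO without DMSO replicate 1 (-0.032) and without 5C replicate 1 (-0.0061), with a range of -0.032 to 0.15 over the libraries left out, Spp1 in 3C against DMSO without DMSO replicate 1 (-0.042, range -0.042 to 0.22), and Krt19 in 5C against 3C without 3C replicate 1 (-0.13, range -0.13 to 0.39). Without a fold limit, 7 markers passed in 5C against DMSO (28.7% of all genes) and 3 in 5C against 3C (12.7% of all genes). With limma on log2(FPKM + 1), 3 markers were called in 3C against DMSO, with or without the filter, where Cftr (0.75) and Prom1 (0.95) fell under the fold limit; the pseudocount understates changes of low genes. Leaving out 1 library gave 2 to 3 called markers in 5C against DMSO, 5 in every fit of 3C against DMSO and 0 in every fit of 5C against 3C; such fits assume that a lone library varies like the others. The share of all genes called fell to 7.69%, 6.22% and 2% in the 3 comparisons with every gene of at least 1 count, and in 5C against 3C to 1.91% without 3C replicate 1, 2.01% without 3C replicate 2 and 1.88% without 5C replicate 2. Another scaling moved the median of all genes by at most 0.02.

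Replicate numbers did not pair the libraries: deviations of same-numbered libraries correlated at 0.02 (5C and DMSO), -0.12 (3C and DMSO) and 0.04 (5C and 3C). With a replicate block 3, 5 and 0 markers were called in 5C and 3C against DMSO and in 5C against 3C, as without it; the block with 3C numbers crossed, added after seeing the data, also gave 5 in 3C against DMSO. With 2 libraries per group, small differences such as those of Sox4 and Krt19 sit at the threshold, and the low counts of Cftr limit its precision.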
